A study of Homo sapiens with 24 samples.

Results

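The 10 hypoxia response genes described here are HILPDA, NDRG1, BHLHE40, VEGFA, ADM, CA9, ANKRD37, BNIP3, EGLN3 and PFKFB4. They were found by symbol as 10 of the 60617 rows of the deposited expected count table, and 9 of them were among the 13536 genes with enough counts to be tested. CA9 had too few counts. The genes were selected on measured values, in part chosen by the biosimilar minus Herceptin difference in these libraries, in which the class lay slightly lower with the biosimilar. That difference is therefore given below as a description with no test. RNA with poly(A) tails was sequenced from SKBR3, a human breast carcinoma line in which the HER2 gene ERBB2 is amplified. The 24 libraries formed 3 groups of 8: cells that received no antibody (control), cells that received Herceptin (trastuzumab, an antibody against HER2), and cells that received ApoTras, a biosimilar version of that antibody. All cultures were seeded at 6500 cells per cm2 in DMEM with fetal bovine serum and antibiotics, and RNA was taken on day 7. The protocol writes 4 µg/ml beside Herceptin, and whether the same dose was meant for the biosimilar is not clear from it. It names PBS as the carrier of the antibodies, and no control given PBS alone or an unrelated antibody is listed. The line is a single cancer line grown without stroma or vessels, and no oxygen level is given for any group.

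Cells sense oxygen through the hypoxia-inducible factors (HIF). With oxygen present, prolyl hydroxylases of the EGLN family mark the alpha subunits HIF1A and EPAS1, which the VHL ubiquitin ligase then passes to degradation. When oxygen is short the alpha subunits persist, pair with ARNT and raise the transcription of genes for vessel growth, glycolysis, pH control, mitochondrial turnover and lipid storage, in tumours as in normal tissue. In HER2-positive breast cancer cells, receptor signalling through PI3K and mTOR is also known to raise HIF1A protein, which transcript counts do not measure.

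The control libraries totalled 9116591 to 10759115 expected counts each, the Herceptin libraries 10747837 to 12260086 and the biosimilar libraries 9070186 to 11880165. ERBB2 averaged 4174 ± 116 counts per 1000000 counts (CPM; SD, n = 8) in control cells, and the summed level of 7 luminal and SKBR3 markers lay between 16080 and 19010 CPM in every library. The summed level of 5 leukocyte markers reached at most 1.52 CPM. Fibroblast markers summed to between 3.22 and 5.18 CPM, nearly all of it COL1A1, which fell with both antibodies. Endothelial markers summed to 32.7 to 39.4 CPM in control and 41.9 to 53.7 CPM with the antibodies. Nearly all of that was CDH5, while PECAM1, TEK and KDR were at or near 0. The mitochondrial genome supplied 3.27% ± 0.247 of control counts, 4.09% ± 0.264 of Herceptin counts and 4.28% ± 0.169 of biosimilar counts (SD, n = 8). Biosimilar replicate 6 stood farthest from its own group, with a median chi-square per degree of freedom of 5.75 against its 7 group mates, where the other 23 libraries had 2.00 to 4.46.

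The hypoxia response genes did not move as 1 block. HILPDA, NDRG1 and ADM rose with each antibody, by 1.26 to 1.47 times. BNIP3 and PFKFB4 fell with each antibody, by 15.9% to 26.4%. BHLHE40 and EGLN3 were called higher with Herceptin, VEGFA was called lower with the biosimilar, and ANKRD37 was not called with either. With Herceptin, 5 of the 9 tested members rose and 2 fell, where 22.7% of all tested genes rose and 23.8% fell. With the biosimilar, 3 rose and 3 fell, where 23.4% of all tested genes rose and 24.6% fell. The median log2 fold change of the 9 members was 0.21 with Herceptin and 0.00 with the biosimilar, beside -0.001 and -0.003 over all tested genes. A call is an adjusted p under 0.05 in edgeR's quasi-likelihood test, with Benjamini-Hochberg adjustment over the 13536 genes. Both comparisons share the 8 control libraries, so they are not independent. The gap between the antibodies in these calls, counts and medians restates the difference that in part chose the members. That gap is description and was not tested. The counts set beside all tested genes are likewise description, as the members were selected on measured values. In a bulk culture, fewer cells in a given state and less RNA per cell cannot be told apart.

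**Figure D1:**
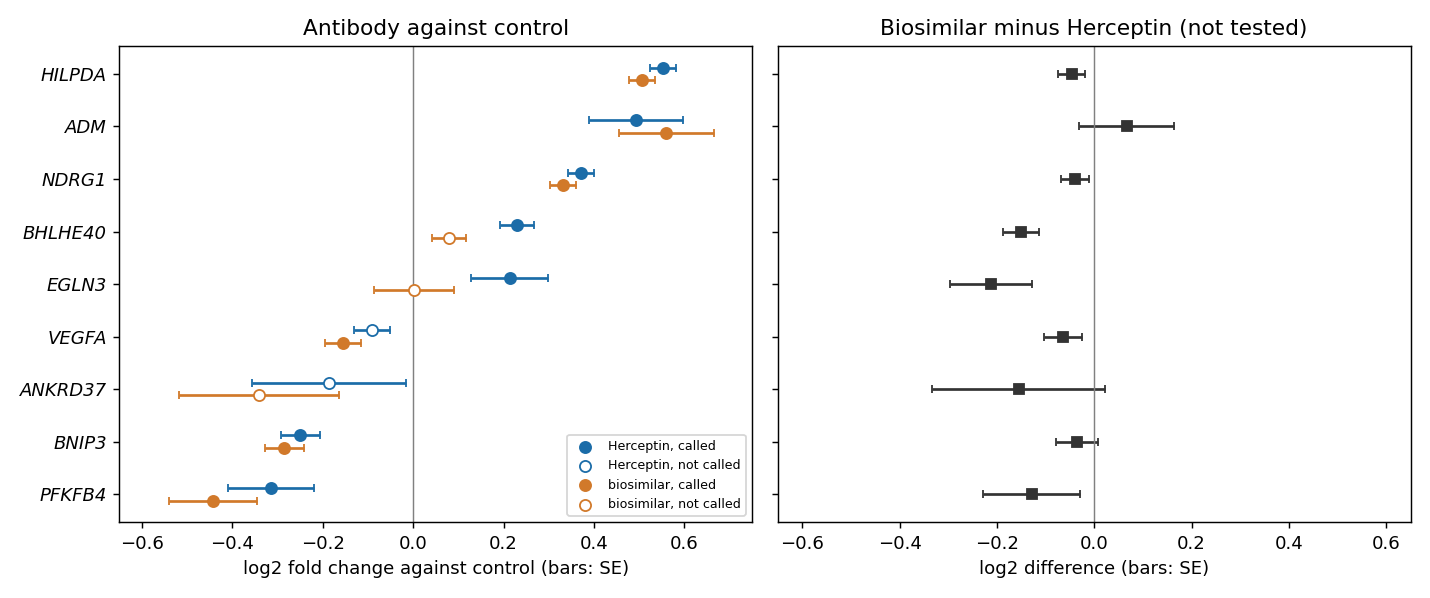
The left panel plots the log2 fold change of each tested member against control for Herceptin (blue) and the biosimilar (orange), with SE bars and filled points for calls. The right panel plots the biosimilar minus Herceptin difference with SE, which has no test. HILPDA, ADM and NDRG1 lie to the right of 0 with both antibodies and BNIP3 and PFKFB4 to the left, while on the right panel only ADM lies above 0.

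Each member's 8 libraries can also be compared by range. With Herceptin, all 8 libraries lay above all 8 control libraries for 3 members (HILPDA, NDRG1 and BHLHE40), where 8.95% of all tested genes did so. No member lay wholly below control with Herceptin, where 8.07% of all tested genes did. With the biosimilar, HILPDA, NDRG1 and ADM, 3 members, lay wholly above control and BNIP3, 1 member, wholly below, beside 7.19% and 7.73% of all tested genes.

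**Figure D2:**
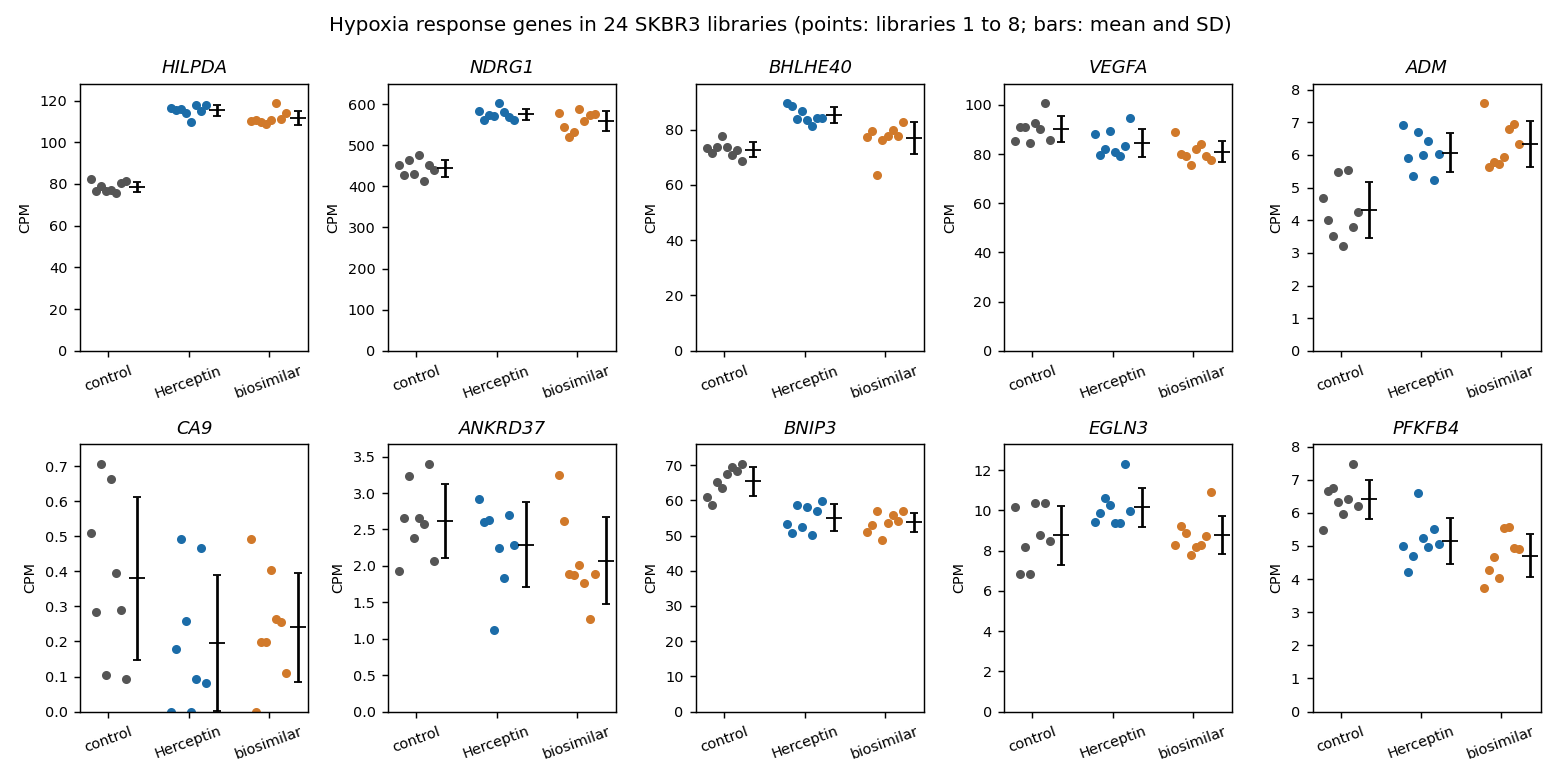
CPM of each of the 10 genes in every library, by group, with points in the order of replicate numbers 1 to 8 and bars for the mean and SD; every axis starts at 0. HILPDA and NDRG1 with either antibody lie wholly above control, BNIP3 with the biosimilar lies wholly below it, and CA9 stays under 1 CPM throughout.

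HIF binds a short core, ACGTG or GCGTG, on either strand. RefSeq promoters (GRCh38.p14), from 250 bases before to 50 bases after the annotated start, were at hand for 7 of the 10 genes: BHLHE40, ADM, CA9, ANKRD37, BNIP3, EGLN3 and PFKFB4. Of these 7, 6 held a core of either kind, 4 ACGTG and 3 GCGTG, and EGLN3 held neither. Over all 35116 promoters of the table, 48.4% held either core, 21.4% ACGTG and 36.5% GCGTG. Printed here are the promoters of a pair of members called higher (BHLHE40 with Herceptin, ADM with both antibodies) and a pair called lower (BNIP3 and PFKFB4), so that the cores can be seen in genes that moved in opposite directions. All read 5′ to 3′ on the strand of the gene, and capitals mark the cores, which appear as CACGT or CACGC where they lie on the opposite strand. The letters CACGTG hold ACGTG on both strands and count as 2 matches. Starts are those of RefSeq, and for BHLHE40, ADM and PFKFB4 the whole window lies inside the gene span given below.
BHLHE40, chr3:4979187-4979486, plus strand: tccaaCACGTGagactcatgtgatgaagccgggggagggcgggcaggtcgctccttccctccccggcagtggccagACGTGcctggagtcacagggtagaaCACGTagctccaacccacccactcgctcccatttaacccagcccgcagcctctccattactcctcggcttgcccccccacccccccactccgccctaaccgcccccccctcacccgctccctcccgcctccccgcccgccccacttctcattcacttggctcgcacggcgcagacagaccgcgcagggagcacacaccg
ADM, chr11:10304823-10305122, plus strand: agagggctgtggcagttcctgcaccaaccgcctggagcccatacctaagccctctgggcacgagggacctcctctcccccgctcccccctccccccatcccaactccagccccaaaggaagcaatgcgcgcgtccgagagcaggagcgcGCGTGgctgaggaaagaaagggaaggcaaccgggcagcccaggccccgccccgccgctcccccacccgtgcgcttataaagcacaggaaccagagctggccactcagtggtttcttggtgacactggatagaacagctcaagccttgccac
BNIP3, chr10:131981874-131982173, minus strand: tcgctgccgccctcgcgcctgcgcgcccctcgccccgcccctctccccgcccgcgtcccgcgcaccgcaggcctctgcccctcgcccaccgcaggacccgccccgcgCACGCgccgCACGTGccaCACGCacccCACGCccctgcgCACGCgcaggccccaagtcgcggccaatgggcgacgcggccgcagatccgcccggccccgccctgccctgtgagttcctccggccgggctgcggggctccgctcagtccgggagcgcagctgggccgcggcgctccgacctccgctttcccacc
PFKFB4, chr3:48556754-48557053, minus strand: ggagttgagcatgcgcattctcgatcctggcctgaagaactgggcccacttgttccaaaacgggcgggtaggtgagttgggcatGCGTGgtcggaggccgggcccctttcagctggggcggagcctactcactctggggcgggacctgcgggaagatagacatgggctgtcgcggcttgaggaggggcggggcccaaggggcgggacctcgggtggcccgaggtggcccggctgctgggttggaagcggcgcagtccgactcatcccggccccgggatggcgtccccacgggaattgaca
The BHLHE40 window held 4 matches to ACGTG, and the BNIP3 window held 2 to ACGTG and 4 to GCGTG. ADM and PFKFB4 held a single GCGTG each, at 101 and 166 bases before the RefSeq start. A core in the window was thus present in members called higher and in members called lower. A match describes letters and not binding, and no binding data were analysed here.

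Of the members that act as secreted signals, ADM rose with both antibodies and VEGFA fell with the biosimilar. ADM (11:10304680-10307397, plus strand, GRCh38) encodes adrenomedullin, a peptide that widens vessels. It had 3.20, 4.12 and 5.53 CPM in the lowest, median and highest control library, 5.22, 6.02 and 6.92 CPM with Herceptin and 5.65, 6.14 and 7.58 CPM with the biosimilar. Of the Herceptin libraries, 6 of 8 lay above the highest control library, and all 8 biosimilar libraries did. The log2 fold change was 0.49 (SE 0.104, adjusted p = 0.000132, edgeR) with Herceptin and 0.56 (SE 0.105, adjusted p = 2.35e-05, edgeR) with the biosimilar. ADM rests on few reads, and its SD in control was 0.865 CPM around a mean of 4.31.

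VEGFA (6:43770184-43786487, plus strand) encodes the growth factor that drives the sprouting of vessels. Control libraries had 84.6, 90.7 and 100.6 CPM at the lowest, median and highest, Herceptin libraries 79.0, 82.5 and 94.6, and biosimilar libraries 75.6, 79.7 and 89.2. The ranges overlapped in both comparisons, although 7 of 8 biosimilar libraries and 5 of 8 Herceptin libraries lay below the lowest control library. VEGFA fell with the biosimilar (log2 fold change -0.16, SE 0.0398, adjusted p = 0.00123, edgeR). With Herceptin the value was -0.09 (SE 0.0392, adjusted p = 0.0537, edgeR), just outside the threshold, and over the alternatives tried its adjusted p ran from 0.0129 to 0.162. It passed the threshold when libraries were scaled by their totals alone (adjusted p = 0.0393), and when any 1 of 8 libraries was left out: control 1, 4 or 8, Herceptin 1, 4 or 8, or biosimilar 1 or 6. VEGFA counts were not whole in 75% of libraries, so part of its reads was shared with another sequence.

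Among 25 relatives and receptors of the members, 14 were tested, and 4 rose (28.6%) and 3 fell (21.4%) with each antibody. These shares are near those over all tested genes (22.7% and 23.8% with Herceptin, 23.4% and 24.6% with the biosimilar). Their median log2 fold change was 0.10 with Herceptin and 0.04 with the biosimilar. With no filter on low counts, 1 of them fell with Herceptin. The tested relatives BHLHE41, CA12, BNIP3L, EGLN1, EGLN2 and PFKFB3 also belong to the HIF lists described below and are counted in both. NRP1, a coreceptor for VEGFA, averaged 59.3 CPM in control, 43.9 CPM with Herceptin and 44.4 CPM with the biosimilar. It fell by 0.44 and 0.42 on the log2 scale (SE 0.0507 and 0.0514). EGLN2, a hydroxylase related to EGLN3, fell by 0.10 and 0.13 on the log2 scale (adjusted p = 0.0313 and 0.00796). The VEGF receptor genes KDR, FLT1 and FLT4, the coreceptor NRP2, and the adrenomedullin receptor parts CALCRL, RAMP1, RAMP2 and RAMP3 had too few counts to be tested. VEGFB, a VEGFA relative, rose with Herceptin (log2 fold change 0.17, SE 0.0402, adjusted p = 0.000605) and was at 0.07 with the biosimilar (SE 0.041, adjusted p = 0.145); the difference between the antibodies was not tested.

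EGLN3 and BHLHE40 act within oxygen sensing and transcription, and both were called with Herceptin and not with the biosimilar. A call with 1 antibody only is no test of the difference between them. That difference in part chose the members and was not tested. EGLN3 (14:33924231-34462774, minus strand) encodes the prolyl hydroxylase PHD3, itself a HIF target. Its lowest, median and highest values were 6.84, 8.63 and 10.4 CPM in control, 9.38, 9.90 and 12.3 CPM with Herceptin and 7.80, 8.52 and 10.9 CPM with the biosimilar. The 3 ranges overlapped, and 2 of 8 Herceptin libraries exceeded the highest control library. The log2 fold change was 0.21 with Herceptin (SE 0.0851, adjusted p = 0.0365, edgeR) and 0.00 with the biosimilar (SE 0.0887, adjusted p = 0.989, edgeR). The biosimilar value took either sign, from -0.05 to 0.04, when 1 library was left out. The Herceptin call was lost, with an adjusted p of up to 0.102, on leaving out any 1 of control replicates 2, 3, 4, 6 and 8 or Herceptin replicates 3 and 7. The reference annotation gives EGLN3 a long span that also contains SPTSSA on the same strand, with a mean of 1996 counts per library against 97.6 for EGLN3. The EGLN3 counts were whole in every library.

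BHLHE40 (3:4979116-4985323, plus strand) encodes a basic helix-loop-helix repressor, also called DEC1, that also feeds back on the circadian clock. Control libraries had 68.6, 73.1 and 77.6 CPM at the lowest, median and highest, Herceptin libraries 81.2, 84.1 and 89.4, and biosimilar libraries 63.4, 77.6 and 82.9. All 8 Herceptin libraries lay above all 8 control libraries, and 4 of 8 biosimilar libraries did. BHLHE40 rose with Herceptin (log2 fold change 0.23, SE 0.0374, adjusted p = 2.73e-06, edgeR). With the biosimilar the value was 0.08 (SE 0.0382, adjusted p = 0.086, edgeR). Without biosimilar replicate 3, the lowest library, it was 0.11 and called (adjusted p = 0.00336), and without control replicate 4 it was 0.09 and called (adjusted p = 0.0478). Counts of BHLHE40 were not whole in 16 of the 24 libraries.

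Of 16 HIF subunits and oxygen-sensing genes, 15 were tested, and with each antibody 4 rose (26.7%) and 5 fell (33.3%). Over all tested genes 22.7% rose and 23.8% fell with Herceptin and 23.4% and 24.6% with the biosimilar, and nothing particular to the list is read from these counts. The list had medians of -0.01 for Herceptin and -0.05 for the biosimilar on the log2 scale. Without control replicate 1, Herceptin replicate 1 or Herceptin replicate 2, or with no filter on low counts, 3 fell with Herceptin, and without biosimilar replicate 6, 7 rose with the biosimilar. CITED2, which competes with HIF alpha subunits for a shared coactivator, averaged 97.1 CPM in control, 155.5 CPM with Herceptin and 150.8 CPM with the biosimilar. Its log2 fold changes were 0.68 (SE 0.0343, adjusted p = 2.39e-19) and 0.64 (SE 0.0346, adjusted p = 2.48e-18). EPAS1, the alpha subunit HIF-2α, rose from 275.2 CPM to 381.8 and 389.6 CPM (log2 fold changes 0.47 and 0.50, SE 0.0291 and 0.0292). HIF1A rose by 0.08 (SE 0.0319, adjusted p = 0.0388) and 0.11 (SE 0.0321, adjusted p = 0.00445), and ARNT by 0.12 and 0.17. Genes that fell with each antibody included ARNT2, an ARNT relative, from 1.61 CPM to 1.15 and 0.806 CPM, and RBX1 and ELOC, parts of the VHL ubiquitin ligase. RBX1 fell by 0.32 and 0.36 on the log2 scale and ELOC by 0.21 and 0.18. EGLN1, the main HIF hydroxylase, was not called with either antibody (log2 fold change -0.05 with each, SE 0.0399 and 0.0403). VHL fell by 0.16 and 0.12 on the log2 scale, but its counts were not whole in any library.

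HILPDA, BNIP3, PFKFB4 and CA9 act in lipid storage, mitochondrial turnover, glycolysis and pH control. HILPDA (7:128455849-128458418, plus strand) encodes a small protein of lipid droplets that blocks the lipase ATGL. It had 75.5, 78.2 and 82.3 CPM in the lowest, median and highest control library, 109.9, 115.7 and 118.0 CPM with Herceptin and 108.7, 110.5 and 118.6 CPM with the biosimilar. Neither antibody group overlapped control, and the lowest antibody library lay above the highest control library. The log2 fold changes were 0.55 (SE 0.0282, adjusted p = 3.31e-19, edgeR) and 0.51 (SE 0.0285, adjusted p = 6.55e-18, edgeR). HILPDA counts were not whole in any of the 24 libraries, and 2 noncoding genes overlap it on the same strand in the reference annotation. These are HILPDA-AS1, with a mean of 17.4 counts per library, and ENSG00000273184, with 26.2, where HILPDA had 1083. PLIN2, another lipid-droplet protein and HIF target, fell from 10.8 CPM to 8.04 and 7.76 CPM (log2 fold changes -0.43 and -0.48, SE 0.0754 and 0.0773).

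BNIP3 (10:131966455-131982013, minus strand) encodes a receptor in the outer mitochondrial membrane for the removal of mitochondria by autophagy. Control libraries had 58.7, 66.3 and 70.3 CPM at the lowest, median and highest, Herceptin libraries 50.2, 55.1 and 59.9, and biosimilar libraries 48.9, 53.8 and 56.9. With the biosimilar every library lay below every control library, and with Herceptin 6 of 8 did. The log2 fold changes were -0.25 (SE 0.0426, adjusted p = 5.59e-06, edgeR) and -0.29 (SE 0.0432, adjusted p = 6.3e-07, edgeR). The share of mitochondrially encoded counts was higher in both antibody groups, as given above, and its part in the BNIP3 values was not tested. With those genes left out before scaling, every tested member kept its call in both comparisons. BNIP3L, the BNIP3 relative with a like role, rose from 20.6 CPM to 23.6 and 24.1 CPM (log2 fold changes 0.19 and 0.22, adjusted p = 0.00504 and 0.00163).

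PFKFB4 (3:48517684-48562015, minus strand) encodes an enzyme that makes and breaks down the sugar phosphate that activates phosphofructokinase. Control libraries had 5.49, 6.37 and 7.47 CPM at the lowest, median and highest, Herceptin libraries 4.21, 5.03 and 6.60, and biosimilar libraries 3.74, 4.79 and 5.56. With each antibody 6 of 8 libraries lay below the lowest control library, so the ranges overlapped. PFKFB4 fell by 0.31 on the log2 scale with Herceptin (SE 0.095, adjusted p = 0.00588, edgeR) and by 0.44 with the biosimilar (SE 0.0981, adjusted p = 0.000241, edgeR). Its relative PFKFB3, which makes the same activator, rose from 60.0 CPM to 74.6 and 76.5 CPM (log2 fold changes 0.31 and 0.35, SE 0.0388 and 0.0392).

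Among 19 genes of glucose uptake and glycolysis, 18 were tested. With Herceptin 3 rose (16.7%) and 9 fell (50%), beside 22.7% and 23.8% of all tested genes. With the biosimilar 3 rose (16.7%) and 10 fell (55.6%), beside 23.4% and 24.6%. The medians were -0.09 and -0.10 on the log2 scale. Those that rose were PFKFB3, HK1 and HK2; the hexokinase HK2 averaged 214.3 CPM in control, 257.9 CPM with Herceptin and 259.5 CPM with the biosimilar (log2 fold changes 0.27 and 0.28). The largest falls were in TPI1 and ALDOC, enzymes of the middle of the pathway, and PDK1, a kinase that inhibits pyruvate dehydrogenase. Their log2 fold changes were -0.36 and -0.38 for TPI1, -0.27 and -0.32 for ALDOC and -0.25 and -0.31 for PDK1. TPI1 counts were not whole in nearly all libraries. The glucose transporter SLC2A1 (log2 fold changes 0.06 and 0.02, adjusted p = 0.06 and 0.442) and LDHA (0.03 and 0.06, adjusted p = 0.375 and 0.111) were not called.

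CA9 (9:35673856-35681159, plus strand), the membrane carbonic anhydrase often used to mark hypoxic tumour cells, was near the limit of detection. The lowest, median and highest control library had 0.0942, 0.343 and 0.706 CPM, against 0, 0.136 and 0.493 CPM for Herceptin and 0, 0.227 and 0.492 CPM for the biosimilar. The 8 control libraries summed to 30 expected counts, the 8 Herceptin libraries to 17.5 and the 8 biosimilar libraries to 19.6. It was at 0 in 2 Herceptin libraries and 1 biosimilar library, where 3 counts, the limit that a count of 0 allows, would correspond to 0.250 to 0.314 CPM; this covers counting error only. The ranges of the 3 groups overlapped, with 4 of 8 Herceptin libraries and 1 of 8 biosimilar libraries below the lowest control library, and no test was made of CA9. The lowest control library held 1 count, as did Herceptin replicates 6 and 8, which lay below it only through larger scaled totals. CA12, another membrane carbonic anhydrase, averaged 162.4 CPM in control and rose to 177.6 and 178.9 CPM (log2 fold changes 0.13 and 0.14, SE 0.0304 and 0.0306).

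NDRG1 (8:133237171-133302022, minus strand) encodes a cytoplasmic protein induced by hypoxia, metal loss and differentiation. It was the most abundant member, with 412.2, 446.3 and 475.8 CPM in the lowest, median and highest control library, 560.4, 572.3 and 601.9 CPM with Herceptin and 519.7, 567.0 and 589.4 CPM with the biosimilar. Neither antibody group overlapped control. The log2 fold changes were 0.37 (SE 0.0289, adjusted p = 7.56e-14, edgeR) and 0.33 (SE 0.029, adjusted p = 1.87e-12, edgeR), and its counts were whole in every library. Its relative NDRG2 fell, from 1.99 CPM to 1.38 and 1.2 CPM (log2 fold changes -0.53 and -0.70, SE 0.17 and 0.177).

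ANKRD37 (4:185396021-185400628, plus strand), an ankyrin repeat gene, had 1.93, 2.61 and 3.40 CPM in the lowest, median and highest control library, 1.11, 2.44 and 2.92 CPM with Herceptin and 1.27, 1.89 and 3.25 CPM with the biosimilar. The 3 ranges overlapped. The log2 fold changes were -0.19 (SE 0.171, adjusted p = 0.393, edgeR) and -0.34 (SE 0.177, adjusted p = 0.11, edgeR). Leaving out 1 library moved the Herceptin value between -0.25 (without Herceptin replicate 1) and -0.08 (without Herceptin replicate 4), with no call. It moved the biosimilar value between -0.47 and -0.26, and it was called only without biosimilar replicate 1 (-0.47, adjusted p = 0.0285). ANKRD37 overlaps UFSP2 on the opposite strand, with a mean of 203.7 counts against 24.6, and the strand setting of the counting is not given in the sources used here. CA9 likewise overlaps ARHGEF39, with 99.5 counts against 2.80.

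Because the members differ in length, their levels were compared as CPM per kilobase of effective length. In control cells the order ran NDRG1 (212), HILPDA (71.8), VEGFA (42.3), BNIP3 (31.3), BHLHE40 (22.6), ANKRD37 (4.83), EGLN3 (4.28), ADM (3.31), PFKFB4 (2.97) and CA9 (0.289). The ranges of ANKRD37 and EGLN3 overlapped in every group, as did those of EGLN3 and ADM, and in control those of ADM and PFKFB4 as well. BNIP3 and BHLHE40 were apart in control and overlapped with each antibody. Summed over the 10 genes, control libraries held 741.7 to 809.6 CPM, Herceptin libraries 917.4 to 956.9 CPM and biosimilar libraries 850.2 to 935.2 CPM. NDRG1 alone made up 57.4%, 61.2% and 61.8% of these sums. Without NDRG1 the sums averaged 329.4 ± 8.59, 364.0 ± 9.40 and 345.3 ± 11.2 CPM (SD, n = 8).

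The biosimilar minus Herceptin difference served in part to choose the members, so its values are description. It was below 0 on the log2 scale for 8 of the 9 tested members, with a median of -0.06, beside 50.8% of all tested genes below 0 and a median of -0.001. The difference was -0.13 or lower in EGLN3, at -0.21 (SE 0.0848), ANKRD37, at -0.16 (SE 0.177), BHLHE40, at -0.15 (SE 0.0371), and PFKFB4, at -0.13 (SE 0.0994). Leaving out 1 library moved ANKRD37 between -0.28 (without biosimilar replicate 1) and -0.07 (without biosimilar replicate 7), and PFKFB4 as far as -0.07 (without Herceptin replicate 4), so their order is not fixed. For EGLN3 and for BHLHE40, 7 of 8 biosimilar libraries lay below the lowest Herceptin library. HILPDA, NDRG1, BNIP3 and VEGFA lay between -0.06 and -0.04 (between -0.09 and -0.02 with 1 library left out), and ADM at 0.07 (SE 0.0971). No member's biosimilar and Herceptin ranges were apart, as were 0.0148% of all tested genes in each direction. Across all genes this comparison made 0 calls in edgeR (0% of 13536), and limma-voom made 0 calls and DESeq2 8, all lower. In edgeR 722 of the 13536 genes had an unadjusted p under 0.05, where chance alone would put a share of about 0.05. Leaving out 1 library gave from 595 (without biosimilar replicate 3) to 1262 (without biosimilar replicate 6). In the wider lists, 20 of 29 other HIF targets, 8 of 15 oxygen-sensing genes, 10 of 18 glycolysis genes and 8 of 14 relatives and receptors lay below 0. Some of the relatives are also counted in the other lists.

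Of 37 other HIF target genes, 29 were tested. With Herceptin 16 rose (55.2%) and 7 fell (24.1%), beside 22.7% and 23.8% of all tested genes, with a median log2 fold change of 0.17. With the biosimilar 15 rose (51.7%) and 8 fell (27.6%), beside 23.4% and 24.6%, with a median of 0.14. The shares that fell are near those over all tested genes. The chemokine receptor CXCR4 had the largest rise, from 4.11 CPM to 8.26 CPM with Herceptin and 7.72 CPM with the biosimilar (log2 fold changes 1.00 and 0.91, SE 0.0955 and 0.0978, adjusted p = 1.91e-11 and 3.65e-10). EDN1, the vessel-constricting peptide endothelin, rose from 44.5 CPM to 60.4 and 60.0 CPM, and IGFBP3, which binds insulin-like growth factors, by 0.36 and 0.33 on the log2 scale. ERO1A, an oxidase of protein folding, rose by 0.37 and 0.26 (SE 0.0312 and 0.0316). The lipase inhibitor ANGPTL4 fell from 4.37 CPM to 3.02 and 2.56 CPM (log2 fold changes -0.52 and -0.75, SE 0.126 and 0.132), and the mitochondrial protein FAM162A by 0.27 and 0.40 on the log2 scale.

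**Figure D3:**
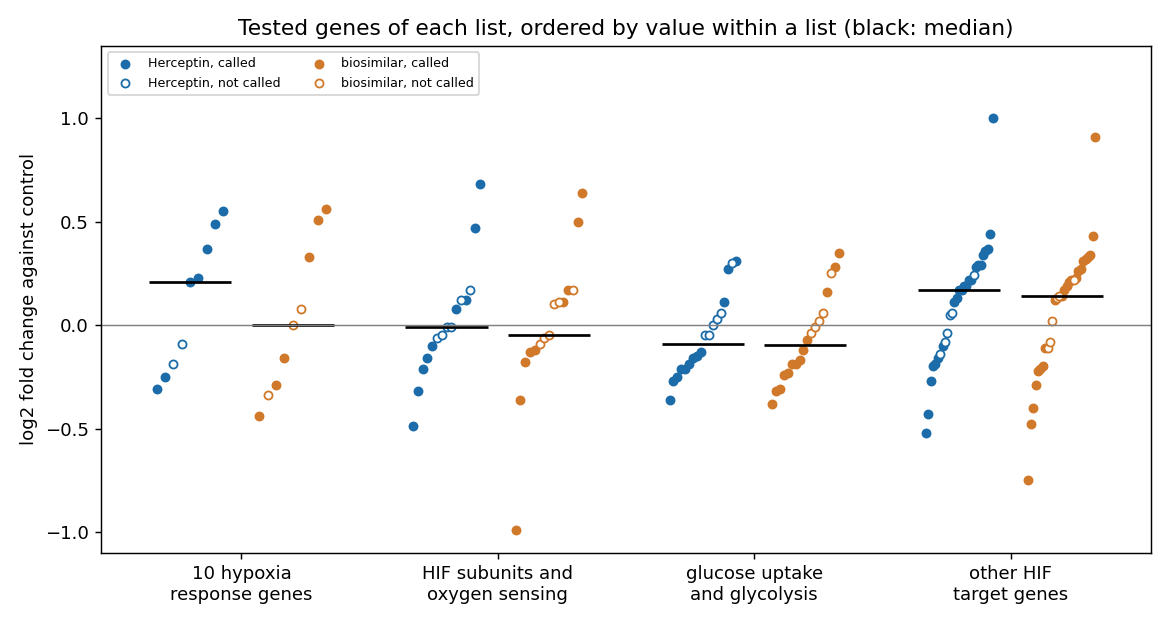
Log2 fold change against control of the tested genes of 4 lists, for Herceptin (blue) and the biosimilar (orange), ordered by value within a list, with filled points for calls and a black bar at the median. The 18 genes of glucose uptake and glycolysis have medians of -0.09 and -0.10, and the 29 other HIF targets medians of 0.17 and 0.14.

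Within groups, the members' deviations from library to library were at most moderately correlated with each other. Over the 24 libraries and after subtraction of each group mean, the 36 pairs of tested members had Pearson correlations of log2 CPM from -0.39 to 0.44, with a median of 0.09. The closest pairs were BNIP3 with EGLN3 (0.44) and NDRG1 with BHLHE40 (0.40), and the lowest was ANKRD37 with PFKFB4 (-0.39). The members of a pair were read from the same libraries and scaled by the same totals, and no test was made of these values. Counting error also lowers such correlations, most of all in members with few counts such as ANKRD37, ADM and PFKFB4. Low values therefore cannot show whether the members vary together. Control replicate 7 lay above its group mean for 8 of 9 members and biosimilar replicate 4 for 0 of 9. Among 10430 other genes with a mean of at least 5 CPM, those most like the members' mean deviation were S100P and SELENOH (r of 0.72 each), HDAC11 and MRPS23 (0.70 each) and UBL5 (0.68), over the 24 libraries. S100P rose with each antibody (log2 fold changes 0.46 and 0.32), MRPS23 fell (-0.20 and -0.31), and the other 3 were not called. These genes were picked as the highest of 10430 correlations, which were not tested.

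**Figure D4:**
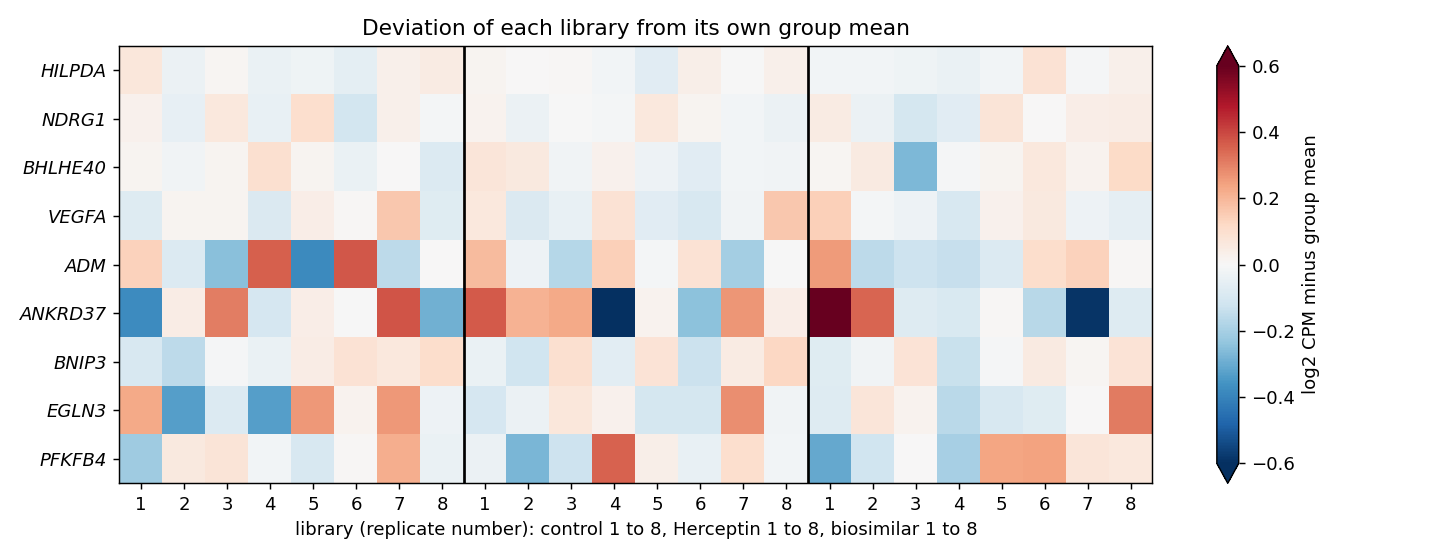
Log2 CPM of each tested member in each library minus the mean of its own group, from blue (below) to red (above), with control, Herceptin and biosimilar libraries 1 to 8 from left to right. Genes with few counts such as ANKRD37 and ADM vary most, and biosimilar replicate 4 is below its group mean for all 9 members.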

How the data were processed

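RNA was measured in 24 SKBR3 libraries. The authors deposited RSEM expected counts per gene. FastQC, STAR and RSEM on GRCh38.p12 are named per the submitters' processing notes. For trimming, annotation release, strandedness and RSEM options, details were not given in the sources used here. Non-whole values made up 9.29% of the table, and all expected counts were rounded. Per the labels' protocols, replicates were set up at seeding in multiwell plates, with no passage or batch given, so p-values measure only how these libraries vary, and that variation may be technical. Within groups, 84 library pairs differed by more than sampling noise (chi-square per degree of freedom 1.52 to 7.96).

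In edgeR 4.0.16 (R 4.3.3), genes were filtered with filterByExpr and all 24 libraries were fitted in 1 model of 3 groups with TMM factors and robust quasi-likelihood tests, two-sided. The p-values were adjusted by Benjamini-Hochberg across the tested genes, with a threshold of 0.05. CPM are counts per 1000000 of the TMM-scaled total. The common biological coefficient of variation was 4.9%. Gene spans, strands and overlaps come from a GENCODE reference annotation, which may differ from the release used for the counts. Promoters come from RefSeq, GRCh38.p14. Of ALDOA, which has a pair of rows, the row with more counts was used. The test was checked on simulated counts.

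All members are named. From each wider list, up to 3 genes with the largest rise and up to 3 with the largest fall among those called with both antibodies are named; HIF1A, EGLN1, VHL, SLC2A1, LDHA, ERO1A, VEGFB and the untested receptors were chosen after their values were seen. The members and lists were chosen with earlier results of these data known. Alternatives were other scaling factors, filters and rounding, DESeq2 1.42.0, limma-voom (limma 3.58.1), a fit of only the groups compared, a replicate block, and leaving out each library. No set test was run.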

Additional observations from a re-analysis of the deposited data

Results flagged for a closer look

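Of the 33 sets of 8 values, 3 held a library far from the other 7 by Dixon's criterion; chance alone gives about 1 in 20 such sets. BHLHE40 was lowest in biosimilar replicate 3, at 63.43 CPM, where the other biosimilar libraries had 76.2 to 82.9 CPM. EGLN3 was highest in Herceptin replicate 7, at 12.3 CPM, where the other Herceptin libraries had 9.38 to 10.6 CPM. EGLN3 was also highest in biosimilar replicate 8, at 10.9 CPM, where the others had 7.80 to 9.20 CPM.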

How the results depend on the processing

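Each fold change or difference of a tested member was recomputed under 11 other settings and without each of 24 libraries. Of the 630 values against control, which have a test, 603 kept their direction and side of the threshold, 8 reversed, 7 lost a call and 12 gained one. Leaving out a library of the group not compared barely moves a fold change, so part of these values could hardly change. A call can still shift, as it did for VEGFA with Herceptin without biosimilar replicate 1 or 6. All 8 reversals were EGLN3 with the biosimilar, at 0.00 in the reported fit and never called: -0.01 with library totals only, and from -0.05 to 0.04 when 1 library was left out. The 7 losses were all EGLN3 with Herceptin. The 315 biosimilar minus Herceptin values, which have no test, all kept their sign. That difference in part chose the members, and leaving out a control library barely moves it, so the kept signs are description only. The members' counts were 4 to 5 rises and 2 to 3 falls with Herceptin, and 3 to 4 rises and 3 to 4 falls with the biosimilar, when 1 library was left out. Of the wider lists, HIF subunits and oxygen-sensing genes that fell with Herceptin numbered 5, and 3 with no filter on low counts; leaving out 1 library gave 3 to 5. Those that rose with the biosimilar numbered 4, and 4 to 7 when 1 library was left out. Relatives and receptors that fell with Herceptin numbered 3, and 1 with no filter; the cause was not tested. Same-numbered libraries of different groups had at most weakly correlated deviations (24 pairs, r from -0.0779 to 0.102). Of 48 best matches, 8 were to the own number. No strong pairing by number was seen, and these values cannot exclude a weak one. With the replicate block, 5 members rose and 2 fell with Herceptin, 3 rose and 3 fell with the biosimilar, and the median biosimilar minus Herceptin difference was -0.065; across all genes that comparison then had 14 calls, all lower, and with no filter 1 higher and 11 lower. CA9, ANKRD37, ADM and PFKFB4 are limited by depth.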
